A study of Mus musculus with 10 samples.

Results

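FBXW7 is the substrate receptor of an SCF ubiquitin ligase, and 9 genes around it were followed on the arrays: Fbxw7 itself, the cullin scaffold Cul1 and the RING subunit Rbx1 that recruits the ubiquitin-conjugating enzyme, and 6 genes whose protein products FBXW7 is known to mark for degradation (Myc, Mycn, Ccne1, Ccne2, Jun and Mcl1). Every probe set that the platform annotation assigns to one of these symbols alone was taken. This gave 19 probe sets for the 9 genes, out of 45037 probe sets tested and 18193 genes with a symbol of their own. Fbxw7 has 2 probe sets, Mycn 3, Ccne1 2, Jun 2 and Mcl1 6, and each of the other 4 genes has 1.

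The ligase recognises its substrates once kinases such as GSK3 or CDK2 have phosphorylated a short motif, the phosphodegron, and the ubiquitin chain then sends the protein to the proteasome. Control of these substrates by FBXW7 is therefore known as control of protein stability, while the arrays measured transcripts. In embryonic stem cells FBXW7 is best known for limiting the MYC protein, a transcription factor that promotes growth and self-renewal.

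The cells were NG4 mouse embryonic stem cells, a cell line, in 5 groups of 2 arrays. All 5 groups received siRNA at plating, were differentiated in the presence of retinoic acid and were harvested 48 h after transfection. The siFbxw7 group received siRNA against Fbxw7, the siSocs3 group against Socs3 (which dampens STAT3 signalling downstream of LIF), the siSox17 group against Sox17 (an endoderm transcription factor) and the siRnf31 group against Rnf31 (a subunit of the linear ubiquitin chain ligase), and the siNonTarget group received a control siRNA without a target. The labels give no siRNA sequences. Nor do they give the culture each replicate came from, and p-values here reflect only the array-to-array spread, which may be technical. No group without transfection or without retinoic acid was analysed here.

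The arrays had median intensities of 46.39 to 47.95. All 8 embryonic stem cell markers were above the array median on every array, from Esrrb to Dppa5a, while of the 12 fibroblast feeder markers 5 were above it on every array (Acta2, Pdgfrb, Col1a2, Twist1 and Col1a1), 4 were below it on every array (Thy1, Postn, Lum and Fap) and 3 were above it on some (Col3a1, Dcn and Twist2). Acta2 reached 11.63 on the log2 scale. The summed intensity of the 8 stem cell markers was 28953 to 33698 in siFbxw7, 43930 to 46204 in siSocs3, 34881 to 37907 in siSox17, 28099 to 36342 in siRnf31 and 25930 to 28814 in siNonTarget. The sums of the 5 measured retinoic acid induced genes were 17941 to 20583, 13620 to 14833, 15433 to 15748, 16355 to 17242 and 18159 to 22386 in the same order of groups. The 8 neural markers summed to 1451 to 2082 in siFbxw7, 826 to 1062 in siSocs3, 1522 to 1678 in siSox17, 1530 to 1782 in siRnf31 and 1889 to 2513 in siNonTarget. These are sums of linear intensities, so the brightest genes weigh most. Dppa5a read 13.88 to 14.25 on the log2 scale, and Cyp26a1 read 12.62 to 13.26. In siFbxw7 2 of the 5 retinoic acid induced genes were above siNonTarget and 3 below. Of the 8 stem cell markers 7 were above it and 1 below, as also in siSocs3, siSox17 and siRnf31, which share the control arrays. All 8 neural markers were below siNonTarget in siFbxw7 and in siSocs3, as were 7 in siSox17 and 6 in siRnf31. The 3' minus 5' log2 difference of the actin probe sets, which grows as RNA degrades, was 0.60 on siFbxw7 replicate 1 and 0.50 on siNonTarget replicate 1, and lay between 0.21 and 0.29 on the other arrays. In bulk RNA, fewer cells of a type and less RNA per cell cannot be told apart.

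Promoter sequence of 7 of the 9 genes was found in RefSeq (assembly GRCm38.p6), 11 transcription starts in all, and Myc and Ccne2 are named only. The 250 bases before the start are shown for the gene targeted by siFbxw7, which has 3 annotated starts, and for Mycn, Ccne1 and Mcl1, the substrates with a window for which the 2 arrays of a group were the highest of all 10 on at least 1 probe set. The Fbxw7 probe sets were not assigned to single starts here. Fbxw7 lies on the plus strand of chromosome 3, with windows at chr3:84815327-84815576, chr3:84863895-84864144 and chr3:84951961-84952210. Mycn is at chr12:12941837-12942086 on the minus strand, Ccne1 at chr7:38107491-38107740 on the minus strand and Mcl1 at chr3:95658471-95658720 on the plus strand. Capitals mark matches, on either strand, to the GC box GGGCGG or to the E2F motif TTTNNCGC with GG, CG, CC or GC in the middle; the MYC E-box CACGTG was searched as well.
Fbxw7 start 1: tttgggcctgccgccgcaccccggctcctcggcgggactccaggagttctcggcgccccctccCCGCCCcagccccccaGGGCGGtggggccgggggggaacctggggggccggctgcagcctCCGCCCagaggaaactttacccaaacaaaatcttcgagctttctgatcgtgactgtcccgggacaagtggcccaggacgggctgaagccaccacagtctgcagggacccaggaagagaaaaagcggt
Fbxw7 start 2: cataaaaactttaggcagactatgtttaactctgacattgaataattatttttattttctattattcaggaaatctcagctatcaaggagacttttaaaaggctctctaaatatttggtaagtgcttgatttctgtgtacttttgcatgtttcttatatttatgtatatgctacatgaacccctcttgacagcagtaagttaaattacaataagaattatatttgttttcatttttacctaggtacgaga
Fbxw7 start 3: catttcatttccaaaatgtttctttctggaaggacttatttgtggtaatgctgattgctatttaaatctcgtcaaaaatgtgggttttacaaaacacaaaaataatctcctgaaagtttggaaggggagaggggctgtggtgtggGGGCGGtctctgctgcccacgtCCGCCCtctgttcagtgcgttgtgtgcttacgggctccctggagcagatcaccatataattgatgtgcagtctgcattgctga
Mycn: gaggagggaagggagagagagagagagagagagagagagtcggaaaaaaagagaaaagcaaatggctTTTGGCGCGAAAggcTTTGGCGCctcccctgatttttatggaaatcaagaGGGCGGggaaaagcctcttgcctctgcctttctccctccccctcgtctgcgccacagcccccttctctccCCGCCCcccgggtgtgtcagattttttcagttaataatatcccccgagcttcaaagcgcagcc
Ccne1: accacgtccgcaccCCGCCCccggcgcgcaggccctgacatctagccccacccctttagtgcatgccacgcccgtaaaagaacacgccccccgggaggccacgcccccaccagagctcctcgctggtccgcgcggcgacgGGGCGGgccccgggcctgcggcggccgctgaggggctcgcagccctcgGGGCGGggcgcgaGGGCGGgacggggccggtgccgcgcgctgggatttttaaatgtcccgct
Mcl1: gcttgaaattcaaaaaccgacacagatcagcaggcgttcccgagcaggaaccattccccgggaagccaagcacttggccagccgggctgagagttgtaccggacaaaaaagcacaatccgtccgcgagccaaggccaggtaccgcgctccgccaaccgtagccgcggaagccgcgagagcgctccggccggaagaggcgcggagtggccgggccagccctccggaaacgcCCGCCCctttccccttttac

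The first Fbxw7 start has 68% G and C with 3 GC boxes, the second 28.8% with none, and the third 45.6% with 2. Mycn has 3 E2F matches, of which a forward and a reverse one overlap, and 2 GC boxes. Ccne1 has 4 GC boxes and Mcl1 has 1. An E2F match was present in 2 of the 11 member windows, Mycn and Rbx1, and in 1.86% of 32851 promoter windows of the same length. A GC box was present in 9 of 11 member windows and in 32.7% of all windows. The E-box was present in 1 member window, at a Cul1 start, and in 6.02% of all windows. These matches describe the letters of the windows only.

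Levels are given as log2 intensity, and differences as log2 differences with the standard error (SE) of one limma model fitted to all 45037 probe sets and 10 arrays, with 2 arrays per group. A probe set is called when its Benjamini-Hochberg adjusted p, over all probe sets of a comparison, is under 0.05. None of the 19 probe sets was called in any of the 4 comparisons with siNonTarget. Among all probe sets the share called was 0% in siFbxw7, 4.99% in siSocs3, 0% in siSox17 and 0% in siRnf31. At an unadjusted p under 0.05 the count of member probe sets was 0 of 19 in siFbxw7 (5.43% of all probe sets), 4 of 19 in siSocs3 (21%), 3 of 19 in siSox17 (12.8%) and 2 of 19 in siRnf31 (5.52%). A test for any difference among the 5 groups called 0 of 19, with 4 at an unadjusted p under 0.05, where 0.775% of all probe sets were called and 14.6% passed unadjusted. The levels below are therefore described array by array.

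Fbxw7 itself read lowest, by group mean, in the group that received siRNA against it. Probe set 1451558_at read 9.04 and 9.28 on the siFbxw7 arrays, 9.44 and 9.60 on siSocs3, 9.92 and 9.89 on siSox17, 9.74 and 9.37 on siRnf31, and 9.27 and 9.55 on siNonTarget. The second siFbxw7 array and the first siNonTarget array were level, so the 2 groups overlapped. The difference of siFbxw7 from siNonTarget was −0.25 ± 0.16 (adjusted p = 0.902, 95% interval −0.60 to 0.11). It was −0.13 without siFbxw7 replicate 1 and −0.37 without siFbxw7 replicate 2. Without siNonTarget replicate 1 it was −0.38, and without siNonTarget replicate 2 it was −0.11. The targeted transcript thus does not settle the siFbxw7 label, and every direction given for this group rests on the label.

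The other probe set, 1424986_s_at, read 8.91 and 8.86 in siFbxw7, 9.08 and 9.62 in siSocs3, 10.16 and 10.01 in siSox17, 9.85 and 8.84 in siRnf31, and 9.47 and 9.29 in siNonTarget. Both siFbxw7 arrays were below both control arrays, by −0.50 ± 0.29 (adjusted p = 0.899), while siRnf31 replicate 2 was as low as the siFbxw7 arrays. The 95% interval of the difference ran from −1.16 to 0.17. The positions of the siRNA target and of both probe sets in the transcript were not used here. Over the 10 arrays the probe sets had a Pearson correlation of 0.88 and a Spearman correlation of 0.81, given as a description since both measure 1 gene in the same RNA.

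The highest Fbxw7 levels were on the siSox17 arrays, with both probe sets. The 2 siSox17 arrays were the 2 highest of 10 for 3 member probe sets (both of Fbxw7 and that of Ccne2), and for 3.11% of all probe sets. They were the 2 lowest for 0 of 19 (2.83% of all), and so were the siFbxw7 arrays (1.11% of all). Against siNonTarget, siSox17 was 0.50 ± 0.16 on 1451558_at (adjusted p = 0.268, unadjusted p = 0.0118) and 0.71 ± 0.29 on 1424986_s_at (adjusted p = 0.36, unadjusted p = 0.0393). In siFbxw7 set directly against siSox17 the differences were −0.75 ± 0.16 (95% interval −1.10 to −0.39) and −1.20 ± 0.29 (−1.87 to −0.54), with unadjusted p of 0.00115 and 0.00271. Adjusted over all probe sets both p-values were 0.955, in a comparison where 0% of probe sets were called. The order of the group means on 1451558_at was siSox17, siRnf31, siSocs3, siNonTarget and siFbxw7 from high to low. Of these neighbours, only siSox17 and siRnf31 did not overlap in their arrays, and their difference was not called either (siRnf31 minus siSox17, −0.36 ± 0.16, adjusted p = 0.846).

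**Figure D1:**
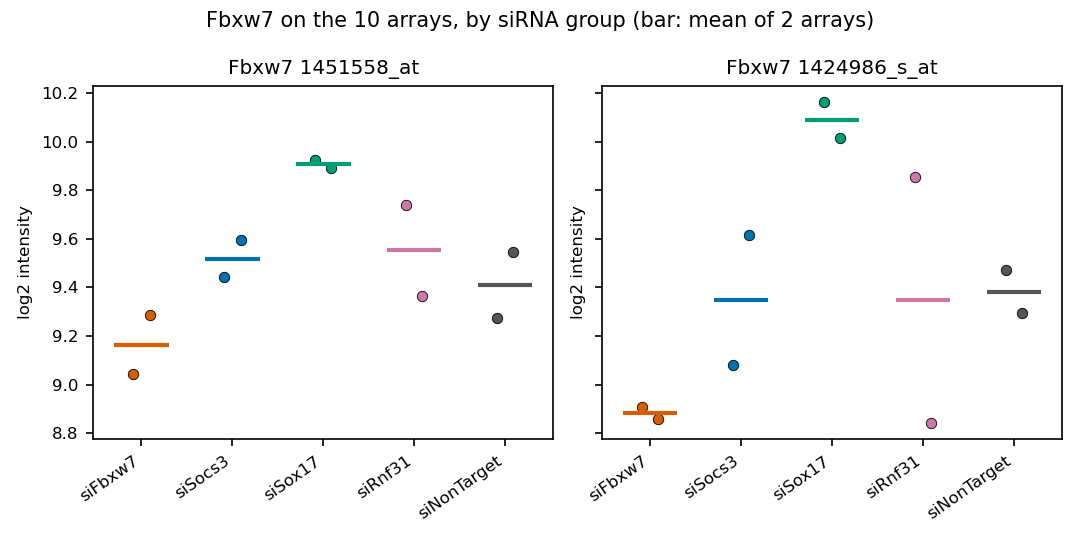
Log2 intensity of both Fbxw7 probe sets, with a point for each array and a bar for the mean of the 2 arrays of a group. The siSox17 arrays are the highest in both panels, from 9.89 to 10.16, and the siFbxw7 arrays reach from 8.86 to 9.28.

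The SCF partners gave no called difference. Cul1, the scaffold that holds the substrate receptor at one end and the RING subunit at the other, stood out for how little it varied. It read 10.77 and 10.74 in siFbxw7, 10.64 and 10.75 in siSocs3, 10.65 and 10.65 in siSox17, 10.75 and 10.76 in siRnf31, and 10.76 and 10.73 in siNonTarget. The range over all 10 arrays was 0.126, smaller than that of nearly all probe sets (percentile 0.35 of ranges). The siFbxw7 difference was 0.01 ± 0.09 (adjusted p = 0.997, 95% interval −0.20 to 0.22). Its sign turned to −0.0068 without siFbxw7 replicate 1 and to −0.0063 without siNonTarget replicate 2.

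Rbx1 was read by 1 probe set of its own and by 5 that its pseudogene shares. Probe set 1440061_at, the one that carries the Rbx1 symbol alone, read 5.96 and 6.72 in siFbxw7, 6.41 and 6.17 in siSocs3, 6.40 and 6.33 in siSox17, 6.47 and 6.71 in siRnf31, and 5.90 and 6.20 in siNonTarget, where array medians were 5.54 to 5.58. The 2 siFbxw7 arrays spanned more than the differences between groups. The siFbxw7 difference was 0.29 ± 0.23 (adjusted p = 0.918), and −0.09 without siFbxw7 replicate 2. In siRnf31 both arrays were above both controls, by 0.54 ± 0.23 (adjusted p = 0.849, unadjusted p = 0.0447). Another 5 probe sets are annotated to both Rbx1-ps and Rbx1, so the transcript of the gene and that of its pseudogene cannot be told apart on them. The brightest of these, 1448387_at, lay between 12.16 and 12.38 on all 10 arrays, and 1416577_a_at between 11.89 and 12.31. The other 3 lay between 9.83 and 10.46 (1416578_at), 5.31 and 5.70 (1438623_x_at), and 2.85 and 3.08 (1447793_x_at), the last 2 of them lower on average than 1440061_at. On 1448387_at the siRnf31 arrays read 12.21 and 12.38 and the controls 12.36 and 12.30. On 1416577_a_at the siRnf31 arrays read 11.99 and 12.23 and the controls 12.29 and 12.07, so these groups overlapped on both. The siFbxw7 differences of the 5 ran from −0.11 (1448387_at) to 0.16 (1447793_x_at). None of the 5 was called in any of the 10 comparisons, with 0.109 as their lowest adjusted p.

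Myc, the growth-promoting transcription factor whose protein FBXW7 turns over, read 8.87 and 8.90 in siFbxw7, 8.41 and 8.51 in siSocs3, 8.77 and 9.15 in siSox17, 8.92 and 8.54 in siRnf31, and 8.57 and 8.70 in siNonTarget. Both siFbxw7 arrays were above both controls and the 2 siSocs3 arrays were the lowest of all 10. The siFbxw7 difference was 0.24 ± 0.16 (adjusted p = 0.906, 95% interval −0.12 to 0.61) and the siSocs3 difference −0.18 ± 0.16 (adjusted p = 0.583). In siFbxw7 set directly against siSocs3, Myc was 0.42 ± 0.16 (unadjusted p = 0.029, adjusted p = 0.263), and in siSocs3 against siSox17 it was −0.50 ± 0.16 (unadjusted p = 0.0133, adjusted p = 0.208). The last of these was −0.69 without siSox17 replicate 1 and −0.31 without siSox17 replicate 2. The siSocs3 arrays were the 2 lowest of 10 for 8.3% of all probe sets, and Myc was the only one of 19 member probe sets in that position.

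Mycn, the MYC family member common in embryonic and neural progenitor cells, had 3 probe sets that did not follow one another. Its brightest, 1417155_at, read 9.77 and 9.71 in siFbxw7, 9.42 and 9.55 in siSocs3, 9.53 and 9.73 in siSox17, 9.51 and 9.64 in siRnf31, and 9.77 and 9.96 in siNonTarget. The 2 control arrays were the 2 highest of 10, as for 3.76% of all probe sets. The difference from siNonTarget was −0.13 ± 0.12 in siFbxw7 (adjusted p = 0.933), −0.38 ± 0.12 in siSocs3 (adjusted p = 0.111), −0.24 ± 0.12 in siSox17 (adjusted p = 0.459) and −0.29 ± 0.12 in siRnf31 (adjusted p = 0.849). These 4 differences share the same control arrays, and that of siFbxw7 was −0.22 without siNonTarget replicate 1 and −0.04 without siNonTarget replicate 2. Probe sets 1425922_a_at and 1425923_at gave siFbxw7 differences of 0.11 ± 0.20 and −0.09 ± 0.12, and siSocs3 differences of 0.02 ± 0.20 and 0.07 ± 0.12. Their correlations with 1417155_at over the 10 arrays were 0.26 and −0.44.

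Ccne1 encodes cyclin E1, which activates CDK2 at entry into S phase. It was highest on the siSocs3 arrays with both probe sets. Probe set 1416492_at read 10.15 and 10.19 in siFbxw7, 10.39 and 10.51 in siSocs3, 10.09 and 10.34 in siSox17, 10.10 and 9.86 in siRnf31, and 10.003 and 9.91 in siNonTarget. Probe set 1441910_x_at read 11.002 and 10.95, 11.11 and 11.20, 11.06 and 11.09, 10.88 and 10.89, and 10.93 and 10.73 in the same order. With both probe sets the siFbxw7, siSocs3 and siSox17 arrays were all above both controls. The siFbxw7 differences were 0.21 ± 0.13 (adjusted p = 0.899) and 0.14 ± 0.10 (adjusted p = 0.91), and that of 1441910_x_at was 0.24 without siNonTarget replicate 1 and 0.04 without siNonTarget replicate 2. The siSocs3 differences were 0.49 ± 0.13 (adjusted p = 0.0632, 95% interval 0.21 to 0.78) and 0.32 ± 0.10 (adjusted p = 0.116, 0.09 to 0.56). With a trended and robust prior, 1416492_at was called in siSocs3 (adjusted p = 0.0455). The siSox17 differences were 0.26 ± 0.13 and 0.25 ± 0.10 (adjusted p = 0.439 and 0.375).

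Ccne2 encodes the second E-type cyclin and read 8.30 and 8.44 in siFbxw7, 8.12 and 8.24 in siSocs3, 8.46 and 8.54 in siSox17, 8.27 and 7.92 in siRnf31, and 8.20 and 8.29 in siNonTarget. Its siFbxw7 difference was 0.12 ± 0.13 (adjusted p = 0.948), with the lower siFbxw7 array level with the higher control array. It was 0.05 without siFbxw7 replicate 2, 0.07 without siNonTarget replicate 1 and 0.19 without siFbxw7 replicate 1. Its largest difference from the control was that of siSox17, 0.25 ± 0.13 (adjusted p = 0.482). While the siSocs3 arrays were the 2 highest for Ccne1, they overlapped the control arrays for Ccne2, with a difference of −0.07 ± 0.13 (adjusted p = 0.82). No test was made between the 2 genes.

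Jun, the AP-1 subunit that the JNK kinases activate, varied most between the control arrays. Probe set 1417409_at read 9.27 and 9.45 in siFbxw7, 9.41 and 9.39 in siSocs3, 9.65 and 9.53 in siSox17, 9.38 and 9.55 in siRnf31, and 9.11 and 9.68 in siNonTarget, so that the 2 controls were the lowest and the highest of all 10. The siFbxw7 difference was −0.03 ± 0.18 (adjusted p = 0.992). It turned to 0.06 without siFbxw7 replicate 1 and to 0.25 without siNonTarget replicate 2. Probe set 1448694_at read 8.21 and 8.33 in siFbxw7 and 8.05 and 8.60 in siNonTarget, and its siSocs3 difference was −0.34 ± 0.20 (adjusted p = 0.364).

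**Figure D2:**
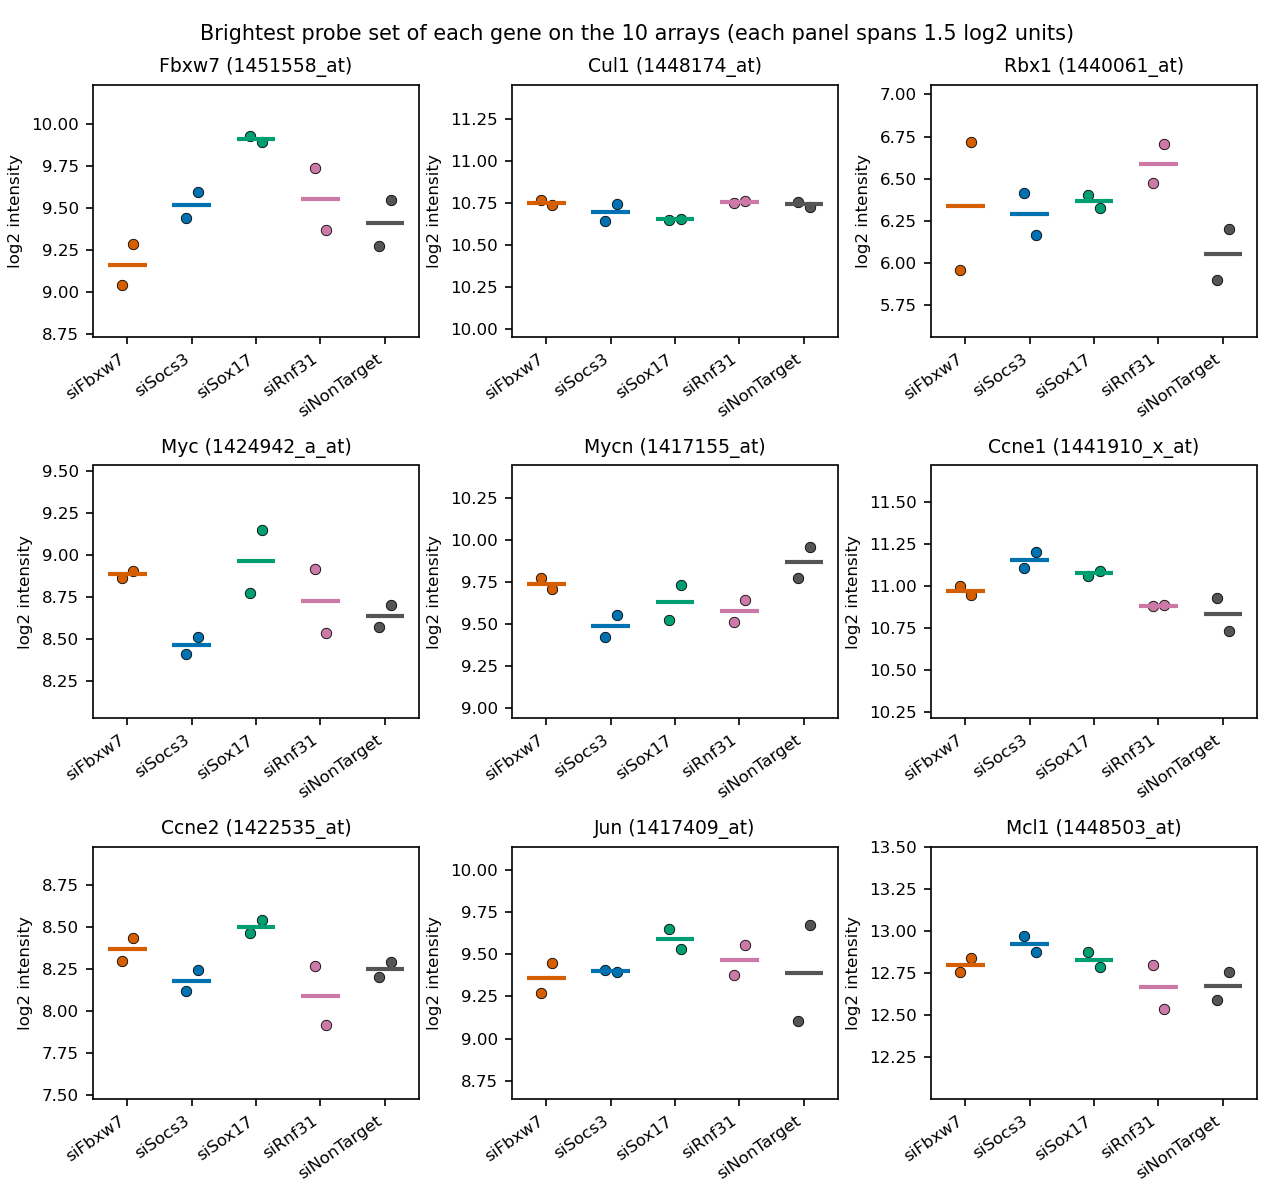
Log2 intensity of the brightest probe set annotated to each gene alone, with a point per array and a bar for the mean of the 2 arrays of a group. Every panel spans the same number of log2 units, and the brighter Rbx1 probe sets shared with its pseudogene are not shown. Cul1 stays within 0.126 over the 10 arrays, Fbxw7 is highest in siSox17 and Ccne1 is highest in siSocs3.

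Mcl1 encodes an anti-apoptotic BCL2 family protein of short half-life. Of its 6 probe sets, 4 had both siFbxw7 arrays as the 2 highest of 10, a position that 1.94% of all probe sets held. Probe set 1416880_at read 11.87 and 11.87 in siFbxw7, 11.76 and 11.65 in siSocs3, 11.79 and 11.72 in siSox17, 11.61 and 11.58 in siRnf31, and 11.70 and 11.71 in siNonTarget. Probe set 1456381_x_at read 11.61 and 11.62 in siFbxw7, 11.49 and 11.30 in siSocs3, 11.41 and 11.37 in siSox17, 11.31 and 11.30 in siRnf31, and 11.44 and 11.46 in siNonTarget. The siFbxw7 arrays of 1437527_x_at (12.08 and 11.96) and 1456243_x_at (11.90 and 11.83) were likewise above the control arrays (11.87 and 11.83, and 11.69 and 11.72). These probe sets measure 1 gene and are not replicates, and the x_at sets may share sequence with other transcripts.

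The siFbxw7 differences of these 4 Mcl1 probe sets were small and alike, at 0.16 ± 0.10 (1416880_at), 0.17 ± 0.11 (1437527_x_at), 0.16 ± 0.11 (1456243_x_at) and 0.16 ± 0.10 (1456381_x_at), with adjusted p-values of 0.899 to 0.906. All 4 intervals include 0. Their upper ends were between 0.38 and 0.42. Set directly against siRnf31, siFbxw7 was 0.28 to 0.35 on the 4 probe sets, with unadjusted p-values of 0.00971 to 0.0313 and an adjusted p of 0.972 for each. On 1437527_x_at and 1456243_x_at siFbxw7 was 0.31 ± 0.11 and 0.30 ± 0.11 against siSocs3 (adjusted p = 0.231 and 0.223).

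On Mcl1 probe sets 1448503_at and 1416881_at the group mean was highest in siSocs3, and the siFbxw7 arrays were not the 2 highest. No difference between probe sets was tested. The brightest, 1448503_at, read 12.75 and 12.84 in siFbxw7, 12.97 and 12.87 in siSocs3, and 12.59 and 12.75 in siNonTarget. Its difference from siNonTarget was 0.12 ± 0.12 in siFbxw7 (adjusted p = 0.938) and 0.25 ± 0.12 in siSocs3 (adjusted p = 0.288). Its Pearson correlation over the 10 arrays was 0.72 with 1416881_at and −0.11 to 0.42 with the 4 probe sets above. Probe set 1416881_at read 11.05 and 11.64 in siFbxw7, 12.21 and 12.07 in siSocs3, and 11.06 and 11.62 in siNonTarget. On siSox17 it read 11.54 and 11.64, and on siRnf31 11.61 and 11.43. The siSocs3 arrays were the 2 highest, and the 2 lowest were the 2 arrays of high actin 3' minus 5' difference. The siSocs3 difference was 0.80 ± 0.22 (adjusted p = 0.0768, 95% interval 0.30 to 1.31), against −0.14 to 0.25 on the other 5 Mcl1 probe sets. It was called (adjusted p = 0.0385) when either siFbxw7 array was left out of the model. It was 0.52 without siNonTarget replicate 1 (adjusted p = 0.312), 0.52 without both arrays of high actin difference (adjusted p = 0.111) and 1.08 without siNonTarget replicate 2 (adjusted p = 0.0517). Those 2 arrays of high actin difference were also the 2 lowest for Fbxw7 1451558_at, Rbx1 1440061_at and Jun 1417409_at, in all 4 of 19 member probe sets, as for 8.5% of all probe sets. They were the 2 highest for 0 of 19, and for 9.31% of all. The part of RNA integrity in these levels was not tested; without both arrays the siFbxw7 difference of Fbxw7 1451558_at was −0.26 (adjusted p = 0.762).

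**Figure D3:**
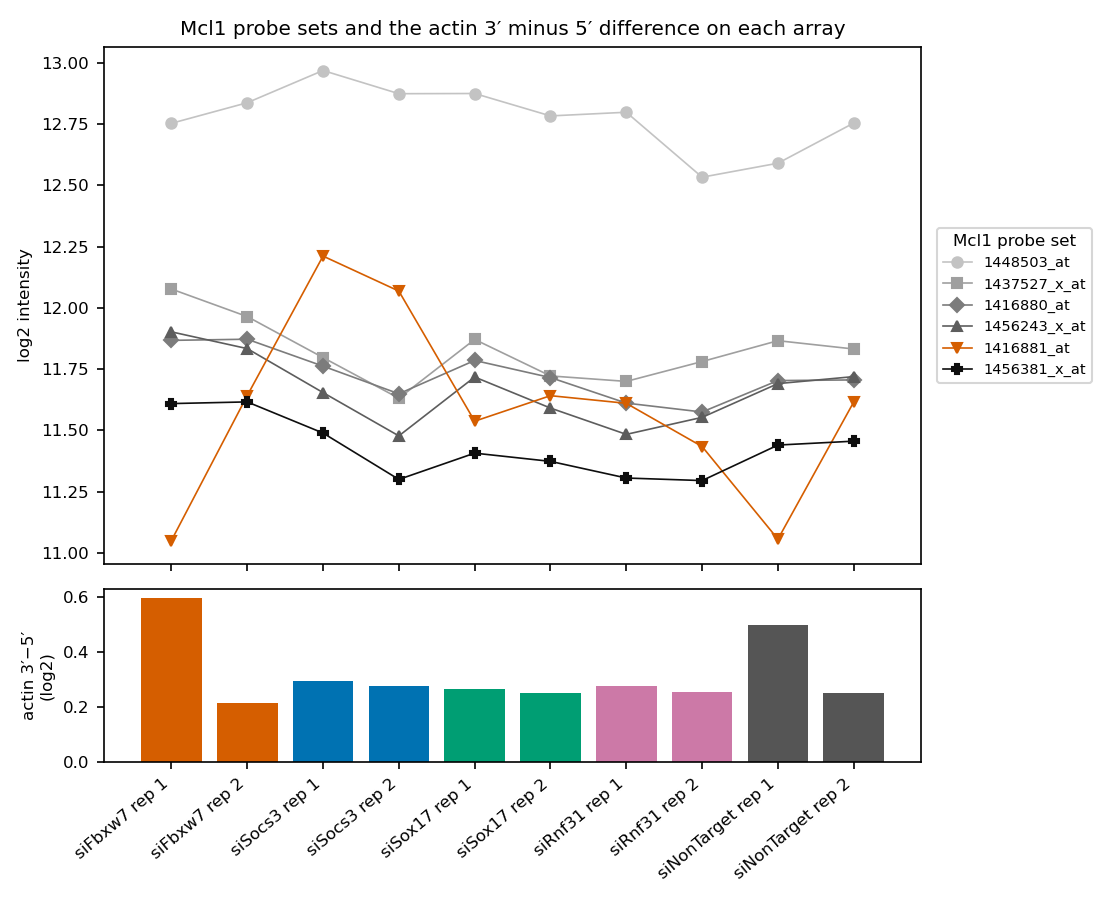
Log2 intensity of the 6 Mcl1 probe sets on each array (upper panel) and the actin 3' minus 5' log2 difference of the same arrays (lower panel, bars from 0). Probe set 1416881_at, in orange, peaks at 12.21 and 12.07 on the siSocs3 arrays and is lowest at 11.05 and 11.06 on the arrays with actin differences of 0.60 and 0.50.

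Across the 19 probe sets the median difference from siNonTarget was 0.12 in siFbxw7 (13 above 0 and 6 below), 0.00 in siSocs3 (10 and 9), 0.16 in siSox17 (11 and 8) and 0.01 in siRnf31 (10 and 9). The medians over all probe sets were 0.01, 0.02, 0.01 and 0.00 in the same order. The siFbxw7 and siNonTarget arrays did not overlap for 11 of 19 member probe sets and 31.4% of all probe sets. For siSocs3 this held for 8 of 19 (51.5% of all), for siSox17 for 12 of 19 (43.5%) and for siRnf31 for 7 of 19 (34.1%). Several of these probe sets measure the same gene, and near-ties count as not overlapping. In siFbxw7 the nearest treated and control arrays read 8.29545 and 8.2948 for Ccne2, and 9.7705 and 9.7741 for Mycn 1417155_at.

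**Figure D4:**
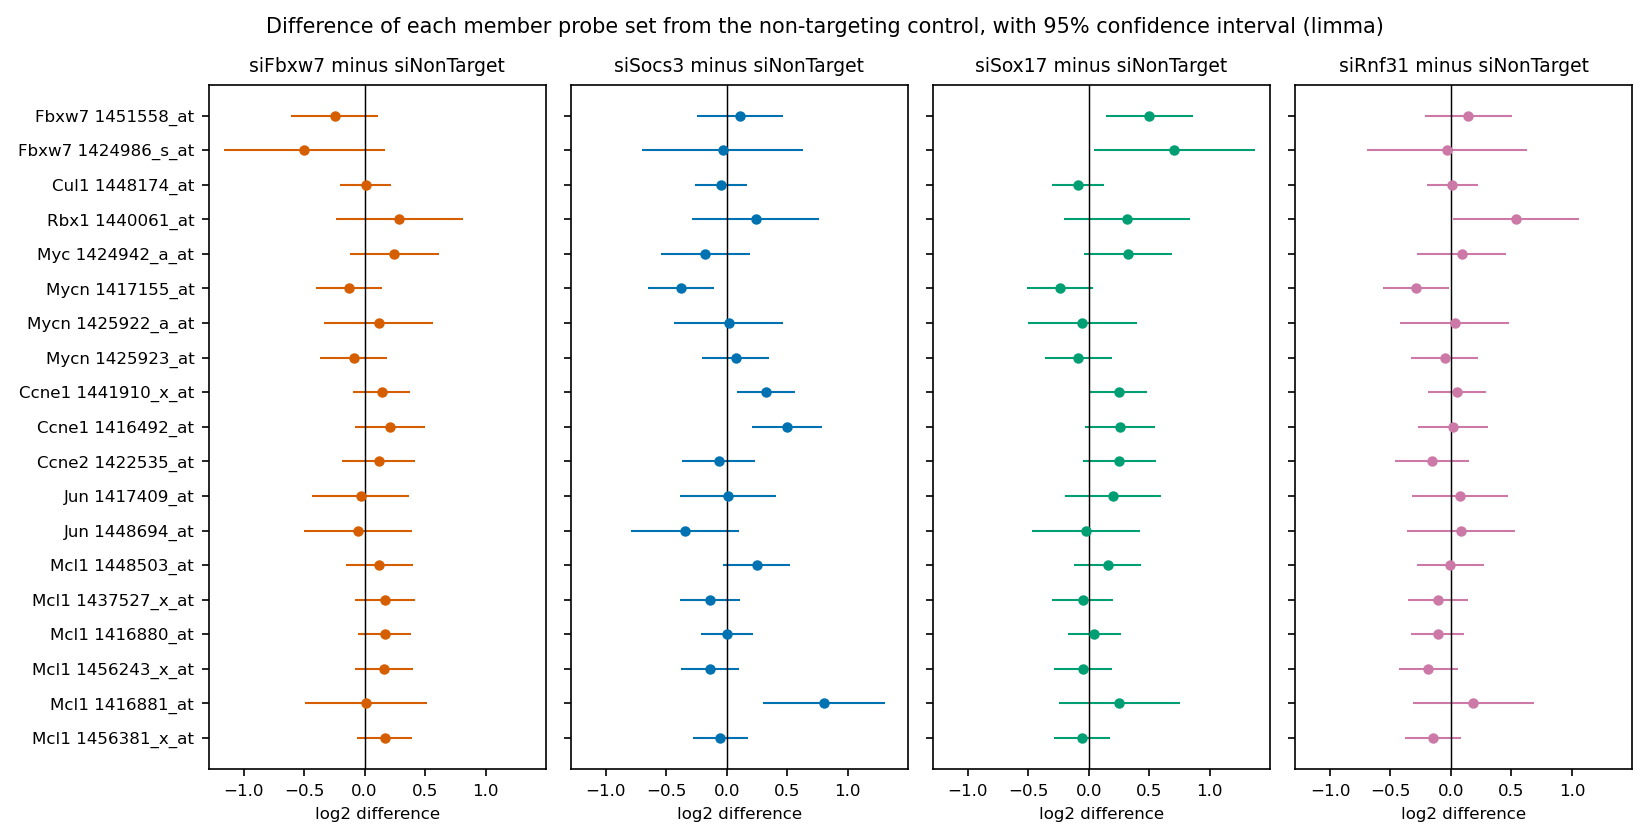
Log2 difference of each of the 19 probe sets from siNonTarget, with its 95% interval from limma, in a panel for each siRNA. No interval excludes 0 in the siFbxw7 panel, and the largest difference of the siSocs3 panel is 0.80, on Mcl1 1416881_at.

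In the 6 direct comparisons between siRNAs 0 of 19 probe sets were called as well. The share of all probe sets called was 2.01% for siFbxw7 against siSocs3, 0% against siSox17 and 0% against siRnf31, 1.37% for siSocs3 against siSox17, 1.05% for siSocs3 against siRnf31 and 0% for siRnf31 against siSox17. At an unadjusted p under 0.05 the member counts were 4, 2, 5, 5, 3 and 2 of 19 in the same order, where 14.9%, 4.6%, 4.36%, 13.8%, 14% and 5.89% of all probe sets passed. The arrays of the 2 groups did not overlap for 14, 11, 9, 10, 10 and 9 of 19, and for 44.9%, 33.8%, 31.4%, 49.7%, 48% and 38.4% of all probe sets. The largest member difference in siFbxw7 against siSocs3 was that of Mcl1 1416881_at, −0.79 ± 0.22 (adjusted p = 0.129), and without siFbxw7 replicate 2 it was −1.09 and called (adjusted p = 0.0452). The same probe set was 0.62 ± 0.22 in siSocs3 against siRnf31 (adjusted p = 0.257), and was called there without the 2 arrays of high actin difference (adjusted p = 0.048).

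The wider pathway was described with 8 lists of genes that do not include the 9 members, each gene by its brightest probe set, 158 distinct genes in all. In siFbxw7 0 of them were called, and 11 had an unadjusted p under 0.05, where 0% of all genes were called and 5.82% passed unadjusted. In siSocs3 14 were called, 4 above and 10 below the control, which is 8.86% of the lists against 6.45% of all genes (2.54% above and 3.9% below). In siSox17 and siRnf31 0 were called, with 24 and 4 at an unadjusted p under 0.05 (16.4% and 5.28% of all genes). The siSocs3 count was 0 when siSocs3 replicate 1 or siNonTarget replicate 1 was left out, 2 when siSocs3 replicate 2 was, and 3 without the 2 arrays of high actin difference. It was 6 without either siSox17 array, 9 without either siRnf31 array and 8 without siNonTarget replicate 2. Of the 18 alternative settings tried, Klf2 was called in 16, Ccnd2, Mxd4 and Orc1 in 14 each, Jund in 13, Imp4 in 11 and Bcl2 in 10. The calls of Bcl2l11 and Notch4 held in 9 each, those of Notch1 and Wdr12 in 8 each, that of Gsk3b in 7 and those of E2f3 and Ube2d1 in 5 each. None of the 14 was called without siSocs3 replicate 1 or without siNonTarget replicate 1.

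Among 24 SCF subunits and activators, such as the NEDD8 pathway and the COP9 signalosome, 0 were called in siFbxw7, with a median of −0.04. The smallest siFbxw7 p-values were those of the conjugating enzyme gene Ube2d1, −0.30 ± 0.16 (adjusted p = 0.899), and of the neddylation cofactor gene Dcun1d1, −0.29 ± 0.18 (adjusted p = 0.9). In siSocs3 1 of the 24 fell and 23 did not pass. This was Ube2d1, with 8.004 and 8.29 in siSocs3 and 8.79 and 8.83 in siNonTarget (−0.66 ± 0.16, adjusted p = 0.0473).

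Of 7 genes for degron kinases and for enzymes that counteract FBXW7, 0 were called in siFbxw7 (median −0.05). Usp28, a deubiquitinase known to stabilise FBXW7 substrates, read 8.03 and 7.90 in siFbxw7 and 8.33 and 8.17 in siNonTarget, a difference of −0.28 ± 0.11 (unadjusted p = 0.0257, adjusted p = 0.899). Gsk3b, the kinase that completes several phosphodegrons, was −0.22 ± 0.12 in siFbxw7 (adjusted p = 0.899). It was the 1 gene of this list that passed in siSocs3, where it fell to 9.29 and 9.27, against 9.77 and 9.84 in siNonTarget (−0.52 ± 0.12, adjusted p = 0.04).

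Of 26 other reported FBXW7 substrates, 8 were above 0 and 18 below in siFbxw7. The counts were 11 and 15 in siSocs3, 9 and 17 in siSox17, and 10 and 16 in siRnf31. In siFbxw7 the median was −0.07 and 0 were called. The smallest p-values were those of the Notch receptors Notch2, −0.49 ± 0.18 (unadjusted p = 0.0236), and Notch4, −0.65 ± 0.25 (unadjusted p = 0.0285), with adjusted p = 0.899 for both. In siSocs3 1 rose, 2 fell and 23 did not pass. Klf2, a transcription factor of the naive pluripotent state, rose to 11.57 and 11.39 in siSocs3, against 10.49 and 10.29 in siNonTarget (1.09 ± 0.16, adjusted p = 0.0133). Notch1 fell by 0.74 ± 0.17 (adjusted p = 0.0471) and Notch4 fell by 1.03 ± 0.25 (adjusted p = 0.0497). Klf2 was also lower in siFbxw7 than in siSocs3 when they were compared directly (−0.81 ± 0.16, adjusted p = 0.0423), a call that held in 10 of the 18 settings. The stem cell marker sums given above were higher and the neural marker sums lower in siSocs3 than in siNonTarget, and their part in these differences was not tested.

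The 12 partners of MYC in its network of dimerising factors had a siFbxw7 median of −0.03 and 0 calls. The smallest p-values there were those of Mlxip, −0.30 ± 0.13 (unadjusted p = 0.0464, adjusted p = 0.899), and of Mlx, 0.14 ± 0.11 (adjusted p = 0.918), both genes for glucose-sensing factors or their partners. In siSocs3 1 of 12 fell, with a median of −0.21. This was Mxd4, a MAX-binding repressor that competes with MYC, which read 7.95 and 7.92 in siSocs3 and 8.70 and 8.64 in siNonTarget (−0.74 ± 0.12, adjusted p = 0.0179).

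Of 35 genes known as MYC targets, 29 were above 0 and 6 below in siFbxw7, with a median of 0.08 beside 0.00 over all genes, and 0 were called. Against the same control arrays, 23 were above 0 and 12 below in both siSox17 and siRnf31, with medians of 0.05 and 0.04. Wdr12, for a ribosome biogenesis factor, read 9.97 and 10.14 in siFbxw7 and 9.71 and 9.85 in siNonTarget (0.28 ± 0.11, unadjusted p = 0.0298, adjusted p = 0.899). Srm, for spermidine synthase, was 0.28 ± 0.12 (unadjusted p = 0.0497, adjusted p = 0.899). In siSocs3 26 were above 0 and 9 below, with a median of 0.19 beside 0.03 over all genes, and 2 rose, 1 fell and 32 did not pass. The ribosome biogenesis genes Imp4 and Wdr12 rose by 0.66 ± 0.13 (adjusted p = 0.0303) and 0.48 ± 0.11 (adjusted p = 0.04). Ccnd2, for cyclin D2, fell to 9.04 and 9.09 in siSocs3, against 11.79 and 10.60 in siNonTarget (−2.13 ± 0.38, adjusted p = 0.0213). Myc itself was not called in siSocs3, as given above.

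Of 15 partners of Jun in AP-1 and kinases of the JNK pathway, 0 were called in siFbxw7 (median −0.07), with Batf3 at −0.52 ± 0.19 (unadjusted p = 0.0243) and Batf at 0.27 ± 0.10 (unadjusted p = 0.0258), both with an adjusted p of 0.899. In siSocs3 1 fell and 14 did not pass. Jund, a JUN family member, read 11.10 and 11.18 in siSocs3 and 12.0004 and 11.78 in siNonTarget (−0.75 ± 0.12, adjusted p = 0.0156).

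Of 25 cyclin E partners and E2F genes, 18 were above 0 and 7 below in siFbxw7 (median 0.04), and 0 were called. The counts were 16 and 9 in siSocs3, 15 and 10 in siSox17, and 12 and 13 in siRnf31. The replication licensing gene Cdc6 read 10.52 and 10.78 in siFbxw7 and 10.20 and 10.45 in siNonTarget (0.33 ± 0.14, unadjusted p = 0.0466, adjusted p = 0.899). Cdkn1b, for the CDK2 inhibitor p27, was −0.37 ± 0.17 (unadjusted p = 0.0587, adjusted p = 0.899). In siSocs3 the origin recognition gene Orc1 rose by 0.71 ± 0.11 (adjusted p = 0.0152), E2f3 fell by 0.52 ± 0.12 (adjusted p = 0.0491) and 23 did not pass. Orc1 read 9.28 and 9.45 in siFbxw7, 10.08 and 9.94 in siSocs3 and 9.21 and 9.38 in siNonTarget.

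Of 16 BCL2 family genes and regulators of MCL1 turnover, 0 were called in siFbxw7 (median −0.03). Bcl2l1, for the anti-apoptotic protein BCL-XL, read 9.80 and 9.92 in siFbxw7 and 9.28 and 9.53 in siNonTarget, a difference of 0.46 ± 0.13 (unadjusted p = 0.00626, adjusted p = 0.899). Bmf, for a pro-apoptotic BH3-only protein, read 8.53 and 7.50 in siFbxw7 and 8.86 and 8.89 in siNonTarget (−0.86 ± 0.32, unadjusted p = 0.024, adjusted p = 0.899). In siSocs3 2 fell and 14 did not pass. These were anti-apoptotic Bcl2, at −0.79 ± 0.16 (adjusted p = 0.0298), and pro-apoptotic Bcl2l11, at −0.99 ± 0.23 (adjusted p = 0.0472).

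**Figure D5:**
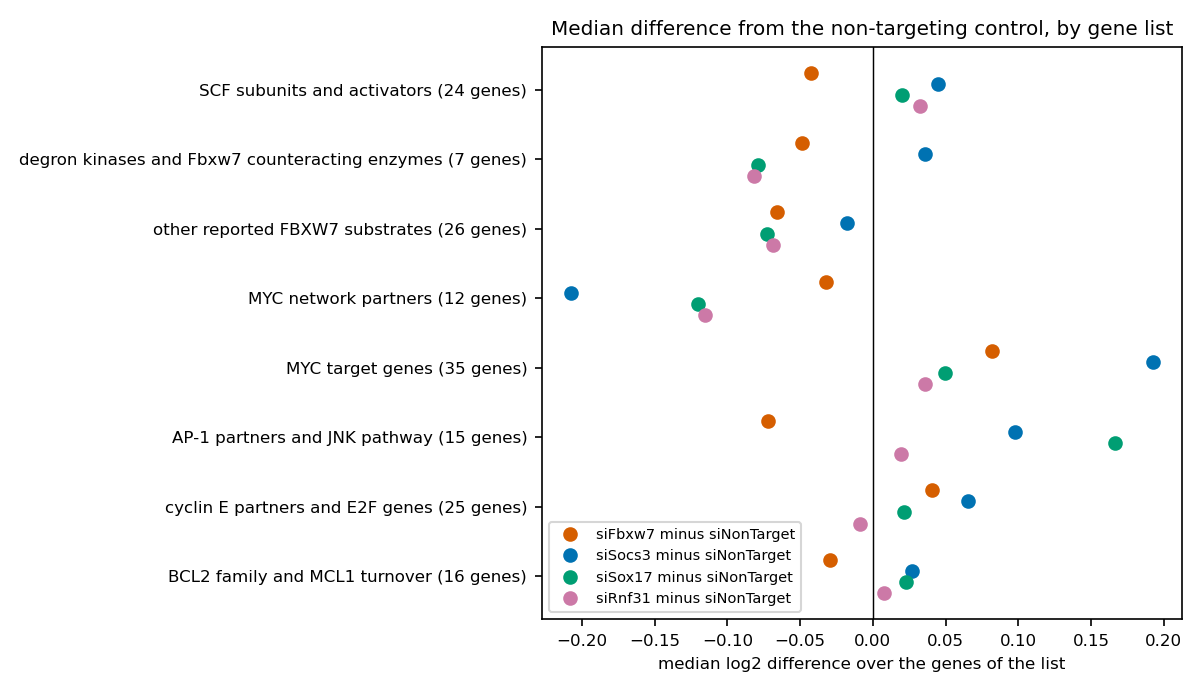
Median log2 difference from siNonTarget over the genes of each of the 8 lists, with a point for each siRNA; the number of genes measured stands beside each list. The siSocs3 points reach from −0.21 (MYC network partners) to 0.19 (MYC target genes), and the siFbxw7 points from −0.07 to 0.08.

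A search covered 8898 genes brighter than the median gene, with clone, Gm, Rik and LOC names left out. Sought were the genes whose levels over the 10 arrays were most like those of Fbxw7 1451558_at. They were Ppp1r18 (Pearson r = 0.96, Spearman rho = 0.95), Ypel5 (0.94 and 0.92), Macrod2 (0.93 and 0.94), Heatr5a (0.91 and 0.88) and Swt1 (0.91 and 0.95). Of each other member, the 2 most alike by Pearson r were Gmeb2 and Bap1 for Cul1 (0.89 and 0.89), Dpcd and Cars2 for Rbx1 (0.95 and 0.95), Mat2b and Pfdn1 for Myc (0.92 and 0.89), and Myef2 and Ints12 for Mycn (0.95 and 0.94). For Ccne1 they were Fam25c and Erf (0.94 and 0.92), for Ccne2 Clptm1l and Slmap (0.98 and 0.93), for Jun Ecm1 and Gata3 (0.96 and 0.95) and for Mcl1 Dnttip2 and Parg (0.97 and 0.96). The genes compared were read from the same RNA on the same arrays, 2 of which had a high actin difference, so the correlations describe likeness over 10 arrays only.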

How the data were processed

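Transcripts were measured on 10 Affymetrix 1-colour arrays, 2 for each siRNA group named in the labels. RNA (5 ng of each sample) was amplified to cDNA and labelled with biotin, per the labels' protocols. The authors deposited an intensity for each probe set on each array. The submitters' processing notes name RMA; for its version and any later scaling, nothing is given in the sources used here. Since they run from 5.05 to 31606.3, they are linear, and log2 was taken first. RMA makes array distributions alike, which hides a shift common to most transcripts, and it compresses changes of dim probe sets. For arrays, their number limits the precision.

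After 64 control probe sets were left out, 1 model of 5 groups was fitted to 45037 probe sets with limma 3.58.1 in R 4.3.3 (lmFit, eBayes, 5 residual and 3.80 prior degrees of freedom), without a replicate block. Two-sided p-values were adjusted (Benjamini-Hochberg) over all probe sets of a comparison and a threshold of 0.05; there were 4 comparisons with siNonTarget, 6 direct ones and an F test over all groups. An exact permutation test of 2 against 2 arrays cannot go below p = 0.333. Names are those of the platform annotation (34945 with 1 symbol, 932 with several, 9160 unnamed here), and a list gene was represented by its brightest probe set. The model was tested on simulated data with independent normal noise of the fitted spread and changes added to siFbxw7. No result here rests on that run. Alternatives were a replicate block, the 2 groups alone, other normalizations, a dim filter, another prior, 1 probe set per gene and leaving out arrays; their use for list counts was added after seeing the data.

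The members and lists were chosen with earlier results of these data known. Named genes are all members; from each list, up to 4 called against siNonTarget with the smallest p and the 2 with the smallest p in siFbxw7; and for likeness the 5 genes closest to Fbxw7 and 2 for each other member. Marker lists cover embryonic stem cells, feeders, neural cells, endoderm and retinoic acid response; the 12 feeder markers summed to 1823 to 1891 in siFbxw7 and 1816 to 4785 in siNonTarget, and the 7 endoderm markers to 1870 to 2661 and 1477 to 2013.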

Additional observations from a re-analysis of the deposited data

Results flagged for a closer look

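Of the 158 list genes, 3 differed between siFbxw7 and siSocs3 when the difference itself was tested (limma, adjusted over all probe sets), which is 1.9% of them against 2.5% of all genes. The 3 are among the 14 called in siSocs3 against siNonTarget, a comparison that shares the siSocs3 arrays. Klf2 was −0.81 in siFbxw7 minus siSocs3 (adjusted p = 0.0423), Mxd4 was 0.69 (adjusted p = 0.029) and Orc1 was −0.65 (adjusted p = 0.0255). Both siFbxw7 arrays lay on one side of both siSocs3 arrays for each of them. In siFbxw7 against siNonTarget the 3 genes were not called, at 0.28, −0.04 and 0.07. The calls of Mxd4 and Orc1 held in 11 of 18 alternative settings and that of Klf2 in 10. Over all probe sets 903 were called in siFbxw7 against siSocs3, with 889 after quantile normalization, 814 with a replicate block and 254 with the 2 groups alone. Leaving out single arrays moved the count in both directions. No member probe set was called in siFbxw7 against siSocs3 with all 10 arrays in the model.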

How the results depend on the processing

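The counts of calls were recomputed under 18 alternative settings (17 for the F test, where the 2 groups alone cannot be fitted), and so were the member differences in siFbxw7 for the brightest probe set of each gene and both of Fbxw7, and those in any comparison with an unadjusted p under 0.05. A probe set that is not the brightest of its gene has 17, since 1 probe set per gene leaves it out. List genes were followed only by their calls. The count of called member probe sets was 0 under all of them for siFbxw7, siSox17, siRnf31 and the F test. For siSocs3 it was 1 with a trended and robust prior (Ccne1 1416492_at) and 0 to 1 when single arrays were left out. For the 6 direct comparisons it was 1 without both arrays of high actin difference, and 0 to 1 when single arrays were left out; the called probe set was Mcl1 1416881_at. The count of list genes called in siSocs3, 14 as reported, was 8 with quantile normalization (8 of the 14), 3 without both arrays of high actin difference (2 of the 14), 6 with the 2 groups alone (4 of the 14) and 0 to 18 when single arrays were left out. The siFbxw7 difference of Fbxw7 1451558_at stayed below 0 and uncalled under all 18, from −0.38 to −0.11. Signs near 0 turned in siFbxw7 for Jun 1417409_at (0.0046 with quantile normalization, −0.32 to 0.25 without single arrays), for Cul1 (−0.0068 to 0.0249) and for Rbx1 1440061_at (−0.0934 to 0.668). The cause was not tested. With the replicate number as a block, Fbxw7 was −0.25 (adjusted p = 0.87), 0 member probe sets were called in every comparison and the list genes called in siSocs3 were 11. The labels link same-numbered arrays by their number alone, and whether they share a culture or batch is not given. Their deviations from the group means correlated at 0.42 between siFbxw7 and siNonTarget, whose replicates 1 are the 2 arrays of high actin difference. In the other 9 pairs of groups the correlation was −0.26 to 0.09. The number of arrays, 2 per group, limits the precision.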
